A study of Mus musculus with 51 samples.

Results

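The CD8+ T cells that carried both CD103 and CD69 in untreated mouse mammary tumors were compared between the second and the first week of sampling. The members were the 4 libraries labelled week 2 and the 3 labelled week 1 for this double-positive subset, chosen by their labels and found in the expression table by the library code that each label gives. They are 7 of 51 samples in all and of 43 in the untreated table. The other untreated libraries were CD103-CD69+ and CD103-CD69- cells sorted from tumors of the same line, CD103+CD69+ cells of weeks 4 and 6, and spleen subsets of control mice. All 7 libraries came from mammary tumors of AT3-OVA and carry the treatment label none, so both groups share the tumor line and differ in the week label. AT3 is a mouse mammary carcinoma line, and OVA is ovalbumin, a model antigen that T cells recognise. The age, strain and number of the mice, and whether 2 libraries share a mouse, are not given in the sources used here.

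CD103 is the alpha chain of the integrin that binds E-cadherin on epithelial cells, and it pairs with integrin beta 7. CD69 binds the sphingosine-1-phosphate receptor S1PR1 and holds cells back from leaving a tissue. Together they mark tissue-resident memory CD8+ T cells, which stay in barrier tissues and tumors, depend in mouse on the transcription factors Hobit (Zfp683) and Blimp1 (Prdm1), and often carry inhibitory receptors such as PD-1.

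The authors deposited normalised values for 10560 genes, made from 3' tags of poly(A) RNA, which were read as log2 expression. A level can be compared between libraries but not between genes, because the mean of a gene over the libraries ran from -28.0 to 39.4 on this scale. Depth per library is unknown from these values, so no counting error can be given, and the error is the spread between libraries. Library medians ran from 8.21 to 8.39. A difference below is the mean of week 2 minus the mean of week 1 on the log2 scale, so that 1 is a doubling if the scale is log2, and it passed the test when limma's p, adjusted by Benjamini-Hochberg over all 10560 genes, was below 0.05.

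The week 1 libraries stood apart before any comparison. Their median SD over genes was 0.289, the largest of the 15 untreated groups, against 0.162 for the 4 week 2 libraries and 0.11 to 0.217 for the others. Each test was therefore made with 1 spread shared by all groups and also with a spread of its own for each group, and counts are given for both. The week 1 libraries were also low in T-cell genes and high in epithelial genes. Of 27 T-cell receptor and identity genes, 23 had their lowest mean of the 12 untreated tumor groups in CD103+CD69+ cells of week 1, and 9 of the 15 measured tumor epithelium markers had their highest mean there. Over all genes these shares were 21.5% and 17.3%. In bulk libraries of sorted cells, fewer cells of a type and less RNA per cell cannot be told apart, and the part of these shifts in the results below was not tested.

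Of the 5 genes behind the sort, 3 were higher at week 2 with the shared spread and none was lower, but only Cd8a passed with own spreads. Cd8a (chr6:71373427-71379173 in GRCm38), the CD8 alpha chain, had values of 8.36, 8.38 and 8.26 in the 3 week 1 libraries and of 10.00, 9.82, 9.93 and 10.17 in the 4 week 2 libraries. Every week 2 library was above every week 1 library, and the difference of 1.65 (SE 0.126) passed with both spreads (adjusted p = 8.10e-09 and 4.58e-06). Cd8b1, the CD8 beta chain, did not pass, with a difference of 0.38 (SE 0.292, adjusted p = 0.33).

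Itgae (chr11:73090583-73147446), which encodes CD103 itself, had values of 14.22, 13.70 and 14.05 at week 1 and of 15.51, 16.34, 14.66 and 15.76 at week 2. The groups did not overlap, but the week 2 libraries were spread widely. The difference of 1.58 (SE 0.522) had an adjusted p of 0.0236 with the shared spread and of 0.128 with own spreads, and of 0.0683 without week 1 replicate 2 and 0.0662 without week 2 replicate 2. Cd69 had values of -0.03, 0.38 and -1.28 at week 1 and of 0.58, 0.92, 0.07 and 1.03 at week 2. These groups overlapped, and the difference of 0.96 passed with the shared spread alone (adjusted p = 0.0335, against 0.112 with own spreads). It was 0.48 without week 1 replicate 3, with an adjusted p of 0.256, and it also missed the threshold without week 2 replicate 2 (0.0713) or replicate 4 (0.079). Itgb7, the partner chain of CD103, differed by -0.41 (adjusted p = 0.394).

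Against the other sorted subsets, the mean of Itgae in CD103+CD69+ cells was 13.99 ± 0.27 (SD, n = 3) at week 1 and 15.57 ± 0.70 (SD, n = 4) at week 2. In CD103-CD69+ cells it was 13.18 ± 0.75 and 14.19 ± 0.28 (SD, n = 3 each), and in CD103-CD69- cells 12.90 ± 1.55 (n = 2) and 11.68 ± 0.61 (n = 3). The mean was thus highest in the cells sorted as CD103+ at both weeks, with a narrower gap at week 1. The week 1 libraries of the subsets overlapped. CD103-CD69+ replicate 3 (14.04) and CD103-CD69- replicate 1 (14.0) lay among the CD103+CD69+ values. The order of the subsets was not tested. For Cd69 the week 1 mean of CD103+CD69+ cells, -0.31, lay below that of CD103-CD69+ cells (0.31) and near that of CD103-CD69- cells (-0.55), which were sorted as lacking the protein. This mean was pulled down by replicate 3 (-1.28), and the other 2 libraries (-0.03 and 0.38) were above both CD103-CD69- libraries (-0.52 and -0.57).

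Across the table, 3587 of 10560 genes (34%) passed with the shared spread, 1889 higher at week 2 (17.9%) and 1698 lower (16.1%). With own spreads 1796 passed (17.0%), 1035 higher (9.8%) and 761 lower (7.21%). The libraries of the 2 weeks did not overlap for 41.3% of genes, 20.8% higher at week 2 and 20.4% lower. The median difference over all genes was -0.0011. The 4 CD3 chains of the T-cell receptor were themselves higher at week 2, by 0.48 (Cd3d), 1.02 (Cd3e), 0.99 (Cd3g) and 0.44 (Cd247), and Cd3d and Cd247 passed with the shared spread alone. The differences were therefore also taken relative to the mean of these chains, a scaling chosen after the values were seen. It moved the median over all genes to -0.735 and left 262 genes higher (2.48%) and 6784 lower (64.2%), 66.7% in all, where the deposited scale had 52.7% of its calls higher. A rise below is thus a rise on the deposited scale, and for the T-cell gene groups the value relative to the CD3 chains is given as well.

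The genes with the smallest adjusted p that rose were Fasl, Prkch, Cish, Chsy1, B4galt5, Ikzf3, Cd8a, Stat4, Mms22l, Trim59, Ptpn22 and Amica1. Several of them act in T-cell signalling. Fasl (chr1:161780689-161788495), the death ligand with which killer cells trigger Fas on a target, had values of 7.24, 7.53 and 7.40 at week 1 and of 9.78, 9.73, 9.65 and 9.90 at week 2. All week 2 libraries lay more than 2 log2 units above all week 1 libraries, and the difference was 2.38 (SE 0.158, adjusted p = 1.24e-09). Cish, a feedback inhibitor of cytokine and T-cell receptor signalling, rose by 2.11, Prkch, a protein kinase C of T cells, by 1.66 and Stat4, which relays interleukin-12, by 1.56. Ikzf3, the lymphoid transcription factor Aiolos, rose by 1.52 and Ptpn22, a phosphatase that restrains T-cell receptor signalling, by 1.42. All 12 passed with own spreads.

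The genes with the smallest adjusted p that fell were Glul, Cd164, D17H6S56E-5, Slc12a2, Agps, Svil, Ktn1, Ube2q2, Atp13a3, Dstn, Bsg and Txnip. Glul (chr1:153899944-153909723), glutamine synthetase, had values of 6.13, 6.39 and 5.69 at week 1 and of 1.58, 1.74, 1.66 and 1.68 at week 2. No library of 1 week came within 3 log2 units of the other week, and the fall of 4.41 (SE 0.209) had the smallest adjusted p of all genes (1.30e-11). Slc12a2, a sodium, potassium and chloride cotransporter, had values of 11.45, 11.83 and 10.94 at week 1 and of 6.53, 6.18, 6.88 and 6.56 at week 2. Its fall of 4.87 was the largest difference in the table. Txnip, which limits glucose uptake, fell by 2.42, the sialomucin Cd164 by 2.22, and basigin (Bsg), a chaperone of lactate transporters, by 1.86. In weeks 4 and 6 the CD103+CD69+ means of Glul were 2.01 and 2.50, nearer to week 2 than to week 1.

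**Figure D1:**
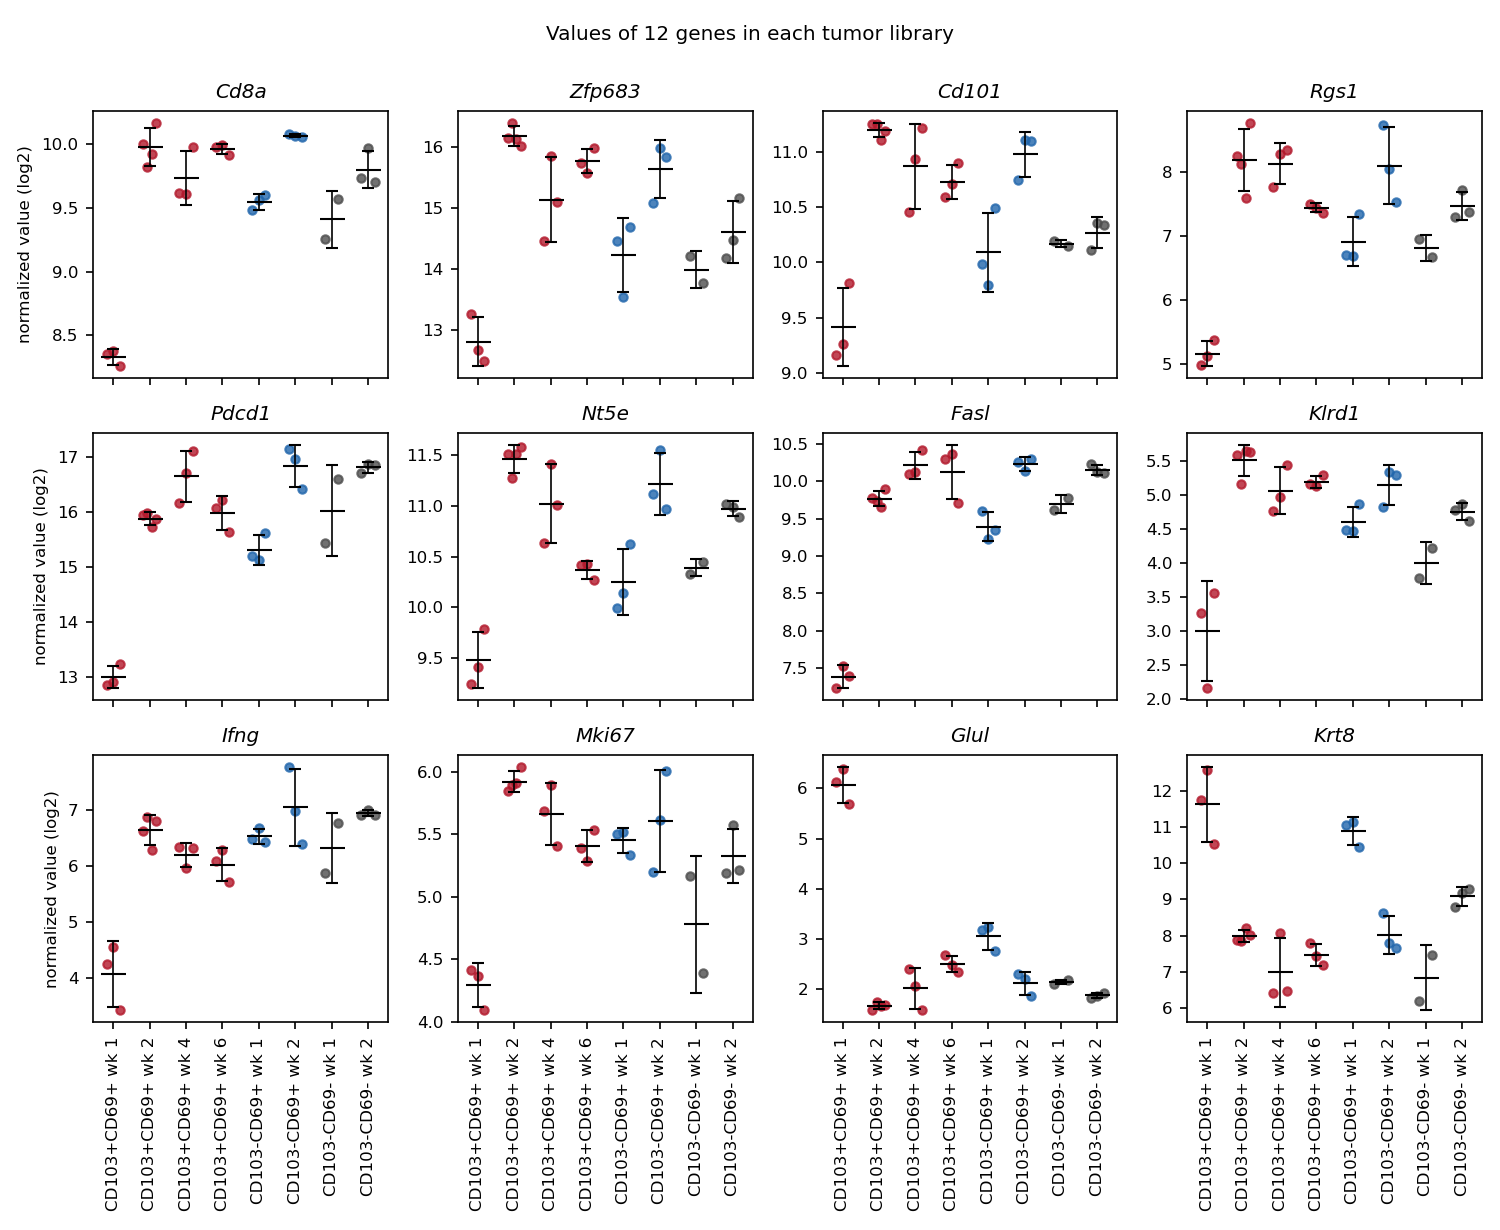
Deposited values, read as log2 (y axis, 1 scale per panel), of 12 genes. Shown are CD103+CD69+ cells of weeks 1, 2, 4 and 6 and CD103-CD69+ and CD103-CD69- cells of weeks 1 and 2. Each point is 1 library and the bars give the mean and SD. In CD103+CD69+ cells Cd8a was at most 8.38 in the 3 week 1 libraries and at least 9.82 in the 4 week 2 libraries, and Glul went from at least 5.69 to at most 1.74.

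Of 27 genes of the T-cell receptor complex, its kinases and T-cell identity, 21 rose and none fell, with a median difference of 0.70; with own spreads 15 rose, and relative to the CD3 chains, which are among them, the median was -0.03. Besides Cd8a they included the receptor kinase Zap70 (0.99), the kinase Fyn (0.98) and the adaptor Sh2d2a (1.20). The mean of the list, with each gene centred on its mean over the 43 libraries, was -0.763 to -0.646 in the week 1 libraries and -0.0844 to 0.0406 in the week 2 libraries. The same mean was -0.0931 to 0.0427 in CD103-CD69+ cells of week 1 and -0.12 to 0.0957 in CD103-CD69- cells of week 1, so the low value belonged to the double-positive libraries of week 1.

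Tissue residency genes were higher at week 2. Of 28 genes on the list, 21 rose and none fell, with a median difference of 1.08; 13 rose with own spreads, and relative to the CD3 chains 10 rose, 1 fell and the median was 0.35. Zfp683 (chr4:134053838-134058996), which encodes Hobit, had values of 13.27, 12.68 and 12.50 at week 1 and of 16.15, 16.40, 16.14 and 16.02 at week 2. The lowest week 2 library was above the highest week 1 library, and the difference of 3.36 (SE 0.395) passed with both spreads (adjusted p = 2.38e-06 and 0.000144). Its means at weeks 4 and 6 were 15.14 and 15.77, both above the week 1 libraries' mean of 12.81.

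Rgs1, a regulator of G-protein signalling that blunts chemokine responses, had values of 4.99, 5.13 and 5.37 at week 1 and of 8.25, 8.13, 7.59 and 8.78 at week 2, a rise of 3.03 (adjusted p = 3.98e-07). The surface protein Cd101 (chr3:100993529-101029556) had values of 9.16, 9.26 and 9.82 and then of 11.25, 11.25, 11.11 and 11.19, a rise of 1.79 (adjusted p = 2.38e-06). Neither gene's groups overlapped, and the week 2 libraries of Cd101 lay within 0.14 of each other. The phosphoinositide phosphatase Inpp4b rose by 1.45.

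Of 26 measured genes of circulating memory cells and of tissue egress, 4 rose and 6 fell, shares near those over all genes (17.9% and 16.1%), with a median of -0.23, and 4 rose and 3 fell with own spreads. Relative to the CD3 chains 1 rose, 17 fell and the median was -0.96. S1pr5, a sphingosine-1-phosphate receptor that draws cells toward blood and that T-bet induces in mouse, had values of 1.84, 1.91 and -0.06 at week 1 and of -2.86, -2.57, -2.47 and -2.53 at week 2. Week 1 replicate 3 was the lowest of its group but still above every week 2 library, and the fall was 3.84 (SE 0.666, adjusted p = 0.000183, and 0.00714 with own spreads). Lef1, a transcription factor of naive and central memory cells, fell by 1.56. Cx3cr1, the fractalkine receptor of effector cells, rose by 1.69 and Tbx21, which encodes T-bet, by 1.05, or by 0.31 relative to the CD3 chains (adjusted p = 0.233).

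Inhibitory and exhaustion-associated genes were higher at week 2. Of 28 on the list, 20 rose and 1 fell, with a median of 1.22, and with own spreads 16 rose and none fell; relative to the CD3 chains 12 rose, 5 fell and the median was 0.49. Pdcd1 (chr1:94038305-94052553), which encodes PD-1, had values of 12.86, 12.92 and 13.23 at week 1 and of 15.94, 15.98, 15.72 and 15.88 at week 2. Each week's libraries lay within 0.4 of each other and the weeks were separated by more than 2, a rise of 2.88 (SE 0.325, adjusted p = 1.53e-06, and 0.000233 with own spreads). Nt5e, the CD73 ectoenzyme that makes adenosine, had values of 9.25, 9.42 and 9.79 and then of 11.51, 11.27, 11.51 and 11.58, a rise of 1.98. The receptors Cd160 and Tnfrsf18 (GITR) rose by 2.26 and 1.44. Cd200, a ligand that restrains myeloid cells, was lower by 0.98 with the shared spread (adjusted p = 0.0221) and did not pass with own spreads (0.125), without week 1 replicate 3 or without week 2 replicate 2.

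Of 21 cytotoxic genes, 9 rose and 2 fell, with a median of 0.67, which became -0.06 relative to the CD3 chains; with own spreads 9 rose and 1 fell. Next to Fasl these were the death ligand TRAIL (Tnfsf10, 2.56), cathepsin W (Ctsw, 2.00) and the granule membrane protein Nkg7 (1.59). The lysosomal membrane protein Lamp1 fell by 0.75.

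Of 20 cytokines and chemokines, 12 rose and 1 fell, with a median of 1.22 and of 0.48 relative to the CD3 chains; with own spreads 9 rose and none fell. Ifng, the main effector cytokine of CD8+ T cells, had values of 4.24, 4.56 and 3.41 at week 1 and of 6.64, 6.89, 6.28 and 6.80 at week 2. The groups were separated by more than 1.5, and the rise was 2.58 (SE 0.297, adjusted p = 1.90e-06). The chemokine Ccl5 rose by 1.64, the macrophage growth factor Csf1 by 2.00 and the CD30 ligand Tnfsf8 by 1.84. Areg, a ligand of the epidermal growth factor receptor, was lower by 2.28 with the shared spread (adjusted p = 0.0271) but not with own spreads (0.189), and not without week 1 replicate 2 or replicate 3.

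Of 21 cytokine receptors, 13 rose and 2 fell, with a median of 0.71 that became -0.02 relative to the CD3 chains, and with own spreads 8 rose and 1 fell. Il2rb, the chain shared by the receptors for interleukins 2 and 15, rose by 1.92, and the alpha chain Il2ra by 1.59. Il6ra, which is lost from T cells on activation, fell by 1.82. Of 23 chemokine receptors and integrins, 10 rose and 3 fell, with a median of 0.62, or of -0.11 relative to the CD3 chains, and 7 rose and 2 fell with own spreads. Cxcr6, the receptor for CXCL16 that is typical of resident cells, rose by 1.70 and Itga1, the collagen-binding integrin CD49a, by 1.97. Cxcr5, which leads lymphocytes to follicles, fell by 2.19, and Itgb3 by 1.65.

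NK-type receptors and adaptors had the highest list median of the groups named for T-cell function. Of 13 measured, 10 rose and none fell, with a median of 2.18; 9 rose with own spreads, and relative to the CD3 chains 9 rose, 1 fell and the median was 1.44. Klrd1, which encodes CD94, had values of 3.27, 2.16 and 3.56 at week 1 and of 5.60, 5.17, 5.65 and 5.63 at week 2. The groups did not overlap, although week 1 replicate 2 lay more than 1 below the others of its week, and the rise was 2.52 (SE 0.264, adjusted p = 6.06e-07). Its NKG2 partners Klrc1 and Klrc2 rose by 2.18 and 2.11; they are close paralogs whose 3' tags may be shared, so their separate values are uncertain. The list mean after centring was -1.34 to -1.03 at week 1 and 0.701 to 0.85 at week 2.

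TGF-beta is the cytokine that induces CD103. Of 19 measured genes of its pathway, 4 rose and 2 fell, near the shares over all genes (17.9% higher and 16.1% lower), with a median of 0.21, or of -0.52 relative to the CD3 chains. With own spreads 2 rose and 1 fell, and without week 2 replicate 1 the shared spread gave 3 calls. The type I receptor Tgfbr1 rose by 1.03 and the repressor Zeb1 by 0.91, whereas the signal transducer Smad3 fell by 0.98.

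**Figure D2:**
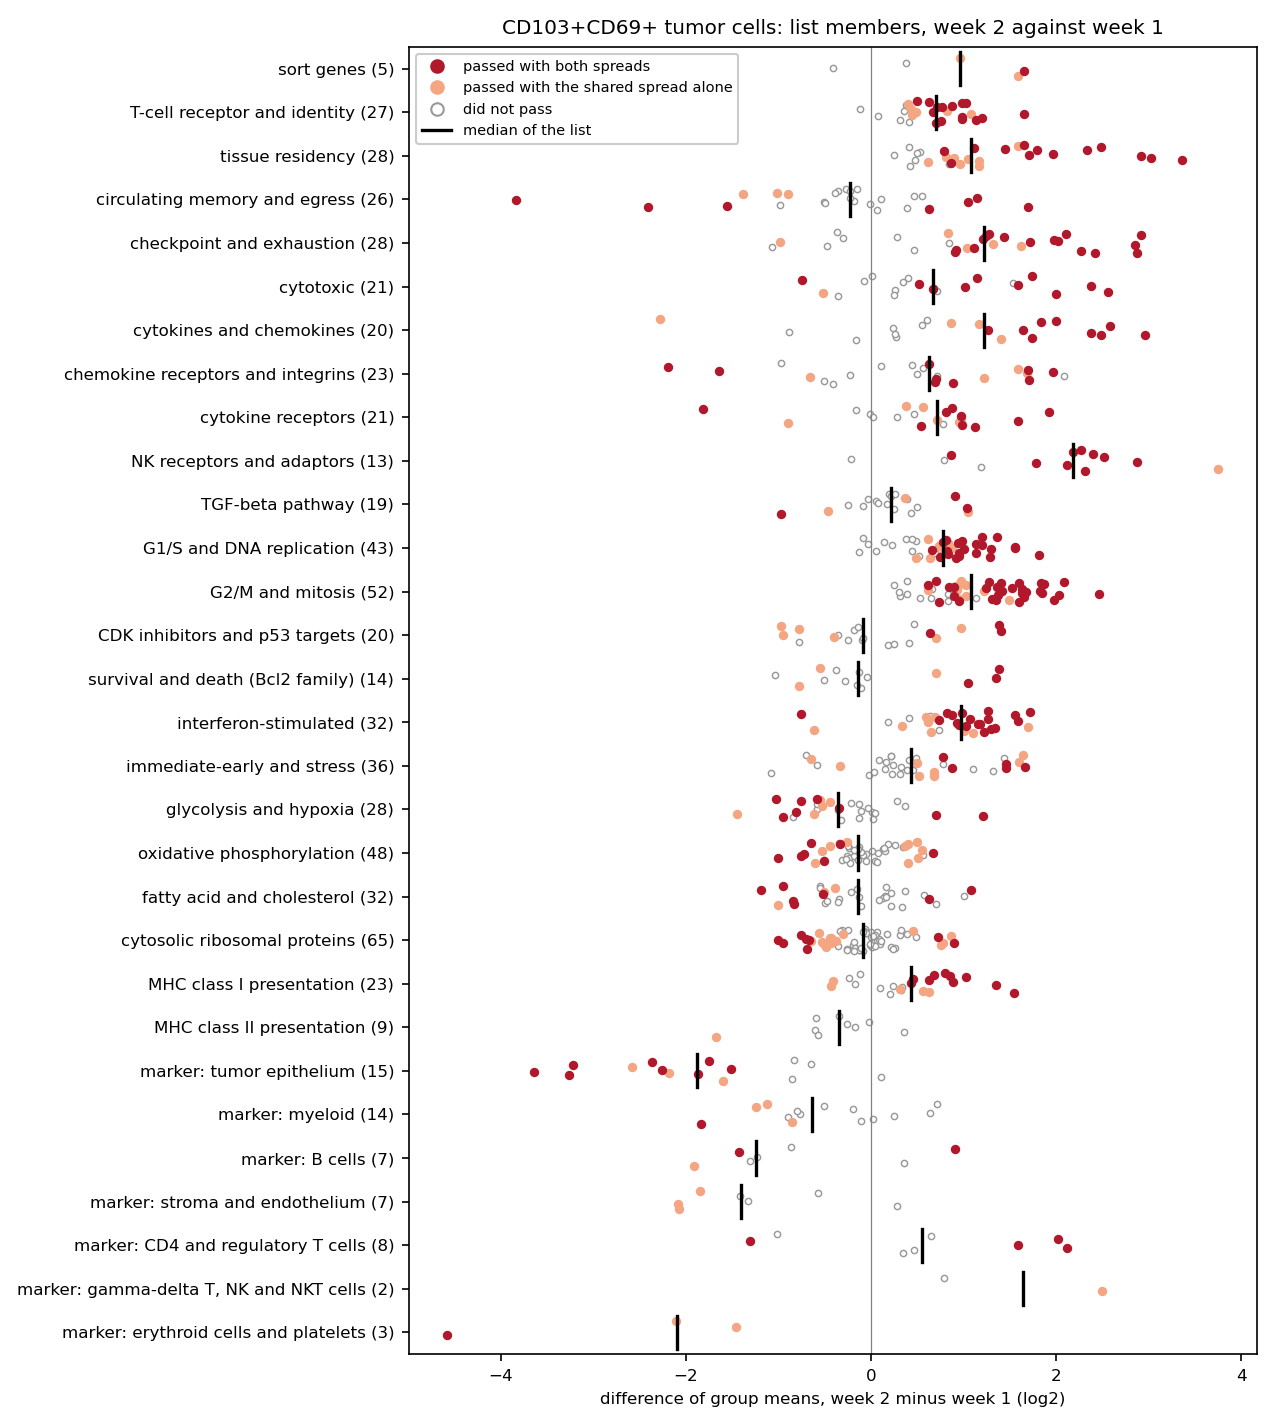
Difference in log2 expression, week 2 minus week 1, for each measured member (points) of each gene list (rows) in CD103+CD69+ cells. Dark red points passed with both spreads, orange ones with the shared spread alone and open ones did not pass, and the black tick is the list median. Medians lay at 2.18 for NK receptors, 1.22 for checkpoint genes and -1.88 for epithelial markers.

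Cell-cycle genes rose together. Of 43 genes of G1/S and DNA replication, 31 rose and none fell, with a median of 0.78, and of 52 genes of G2/M and mitosis, 40 rose and none fell, with a median of 1.08. With own spreads 22 and 30 rose. Relative to the CD3 chains 6 G1/S genes rose and 4 fell, with a median of 0.05, whereas 20 G2/M genes rose and 1 fell, with a median of 0.35. Among the 12 untreated tumor groups, week 1 had the lowest mean for 29 of the 43 and 37 of the 52, and week 2 had the highest mean for 11 and 25. Over all genes week 1 was lowest for 21.5% and week 2 highest for 4.69%.

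These genes are known to be driven through a small set of promoter elements. E2F sites act at G1/S genes, and the CHR element, with CCAAT boxes upstream, acts at G2/M genes through the DREAM and MuvB complexes. The promoters of 2 G1/S genes and 2 G2/M genes that rose are shown to let the elements be read. Each is a window of 300 bases around the gene's start, from RefSeq on GRCm38.p6, on the minus strand as the genes lie, and the capitals mark every match on either strand to CCAAT, to TTTGAA (CHR) or to the E2F letters TTTCCCGC, TTTCGCGC, TTTGCCGC and TTTGGCGC. Mcm3 is at chr1:20820263-20820562, Mcm7 at chr5:138171834-138172133, Mki67 at chr7:135716330-135716629 and Ckap2l at chr2:129297163-129297462.
Mcm3: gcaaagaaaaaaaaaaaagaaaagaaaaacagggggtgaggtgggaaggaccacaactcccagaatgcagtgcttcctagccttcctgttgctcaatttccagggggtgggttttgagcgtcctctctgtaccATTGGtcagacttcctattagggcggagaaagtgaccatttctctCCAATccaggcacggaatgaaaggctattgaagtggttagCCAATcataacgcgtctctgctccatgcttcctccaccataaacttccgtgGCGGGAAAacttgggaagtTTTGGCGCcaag
Mcm7: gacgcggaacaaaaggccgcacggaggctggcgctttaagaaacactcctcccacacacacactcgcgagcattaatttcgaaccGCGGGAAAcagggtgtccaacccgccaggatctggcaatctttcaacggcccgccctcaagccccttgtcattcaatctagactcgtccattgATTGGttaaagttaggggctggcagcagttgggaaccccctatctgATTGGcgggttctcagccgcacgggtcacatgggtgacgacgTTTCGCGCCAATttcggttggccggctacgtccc
Mki67: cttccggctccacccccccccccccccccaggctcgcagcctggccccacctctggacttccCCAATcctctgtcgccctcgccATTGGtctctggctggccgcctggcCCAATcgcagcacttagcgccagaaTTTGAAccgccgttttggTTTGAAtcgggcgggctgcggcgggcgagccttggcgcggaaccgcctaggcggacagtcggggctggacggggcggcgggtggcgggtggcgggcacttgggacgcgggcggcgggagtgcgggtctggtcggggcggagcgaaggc
Ckap2l: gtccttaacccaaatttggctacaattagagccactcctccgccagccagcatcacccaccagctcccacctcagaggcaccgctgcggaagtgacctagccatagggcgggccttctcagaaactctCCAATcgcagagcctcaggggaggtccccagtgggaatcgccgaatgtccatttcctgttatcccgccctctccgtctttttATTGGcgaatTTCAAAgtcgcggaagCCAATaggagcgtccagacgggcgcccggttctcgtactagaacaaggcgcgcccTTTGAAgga
The Mcm3 and Mcm7 windows hold CCAAT boxes and E2F letters, and in Mcm7 a match of each kind shares bases with the other. The Mki67 and Ckap2l windows hold CCAAT boxes and CHR letters.

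Over whole lists the same difference in letters was present. Of the 45 G2/M genes with a promoter entry, 36 (80%) held CHR letters and 35 (77.8%) a CCAAT box, while 4 (8.89%) held E2F letters. Of the 34 G1/S genes with an entry, 4 (11.8%) held CHR letters, 20 (58.8%) a CCAAT box and 11 (32.4%) E2F letters. Among all 27025 promoters these shares were 18.1%, 37.9% and 2.32%. Among the members that rose, 79.4% of G2/M promoters held CHR letters and 30.4% of G1/S promoters E2F letters, close to the whole lists. For CCAAT boxes in G1/S promoters this share was 69.6%. The letters thus describe the lists, and a link to the rise was not tested. The matches describe the letters in these windows and say nothing of what bound there.

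Mki67 (chr7:135689784-135716361), the Ki-67 protein that coats mitotic chromosomes and marks cycling cells, had values of 4.42, 4.37 and 4.09 at week 1 and of 5.85, 5.89, 5.91 and 6.04 at week 2. All week 2 libraries lay above 5.8 and all week 1 libraries below 4.5, a rise of 1.63 (SE 0.189) that passed with both spreads (adjusted p = 2.05e-06 and 7.84e-05). The condensin subunits Ncapg and Smc2 rose by 2.46 and 1.63, and the spindle protein Ckap2l by 1.65. Among replication genes, Mcm3, a subunit of the replicative helicase, had values of 3.42, 3.17 and 3.38 and then of 4.25, 4.43, 4.17 and 4.21, a rise of 0.95, or of 0.21 relative to the CD3 chains (adjusted p = 0.249). The helicase subunits Mcm4 and Mcm7 rose by 1.19 and 0.78 and Pola1, the catalytic subunit of the priming polymerase, by 1.55.

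CDK inhibitors with p53 targets and the Bcl2 family had members that passed in both directions. Over all genes 17.9% rose and 16.1% fell, or 9.8% and 7.21% with own spreads, and these small lists were not tested against those shares. Of 20 of the former, 5 rose and 4 fell, with a median of -0.09. With own spreads 3 rose and none fell, and relative to the CD3 chains 1 rose and 12 fell. Cdkn2c, an inhibitor of CDK4 and CDK6, rose by 1.40, whereas Cdkn1a, which encodes p21, was lower by 0.98 with the shared spread alone (adjusted p = 0.0259, and 0.158 with own spreads), and it missed the threshold without week 1 replicate 3 or week 2 replicate 4. Of 14 Bcl2 family genes, 4 rose and 2 fell, with a median of -0.14; 3 rose and none fell with own spreads, and relative to the CD3 chains 1 rose and 10 fell. The survival gene Bcl2 rose by 1.35 and the pro-apoptotic genes Bcl2l11 (Bim) and Pmaip1 (Noxa) by 1.04 and 1.38.

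Interferon-stimulated genes were higher at week 2. Of 32 measured, 26 rose and 2 fell, with a median of 0.97; with own spreads 18 rose and 1 fell, and relative to the CD3 chains 6 rose, 4 fell and the median was 0.23. Irf7, which amplifies the type I interferon response, had values of 7.16, 7.01 and 7.26 at week 1 and of 8.87, 9.0, 8.78 and 8.80 at week 2. The 2 groups were each tight and more than 1.5 apart, a rise of 1.72 (SE 0.197, adjusted p = 1.83e-06). The GTPase Gbp4 rose by 0.98 and the nucleic acid sensor Zbp1 by 0.87, and Ly6e fell by 0.75, though not after quantile normalisation (adjusted p = 0.0783). Of the 23 list members with a promoter entry, 13 (56.5%) held the core of an interferon-stimulated response element (GAAA, any 2 bases and GAAA again, on either strand), against 3.49% of all promoters. Among those that rose the share was 55.6%, so the match was not particular to them. This search was added after the values were known, and the Irf7 window held no match.

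MHC class I genes, which interferons induce, rose in 13 of 23 cases and fell in 2, with a median of 0.44 that turned to -0.30 relative to the CD3 chains; with own spreads 10 rose and none fell. The class I light chain B2m rose by 0.80 and the heavy chain H2-K1 by 0.68, the latter at -0.058 relative to the CD3 chains. H2-Q6 and H2-Q7 rose by 1.54 and 1.35, but they are near-identical copies, so how their tags divide is uncertain. Of 36 immediate-early and stress genes, which T-cell receptor signals and tissue handling both raise, 11 rose and 2 fell, with a median of 0.43, or of -0.30 relative to the CD3 chains. With own spreads 5 rose, and without week 1 replicate 3 the shared spread gave 8 calls. Egr3, induced by the T-cell receptor, rose by 1.46 and the phosphatase Dusp5 by 1.67. The 2 that fell were Egr1 and Hsp90ab1, and neither passed with own spreads. With single libraries left out the difference of Egr1 was -0.75 to -0.56.

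Glycolysis genes fell more often than they rose. Of 28 genes of glycolysis and hypoxia, 2 rose and 11 fell, with a median of -0.35, and with own spreads 2 rose and 6 fell. The glucose transporter Slc2a1 fell by 0.95, hexokinase Hk2 by 1.03, phosphofructokinase Pfkl by 0.76 and pyruvate kinase Pkm by 0.81. The 2 that rose were another phosphofructokinase, Pfkp, and Higd1a. With single libraries left out their differences were 0.65 to 0.77 and 1.07 to 1.34, and neither passed relative to the CD3 chains. Week 2 had the lowest mean of the 12 tumor groups for 11 of the 28, against 4.55% of all genes. Of 48 genes of oxidative phosphorylation, 7 rose and 10 fell, shares near those over all genes, with a median of -0.14. With own spreads 1 rose and 6 fell, against 9.8% and 7.21% of all genes. The complex IV subunit Cox5b fell by 0.76 and the complex I subunit Ndufb10 by 0.73. Cox6c, another subunit of complex IV, rose, by 0.59 to 0.77 when single libraries were left out.

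Of 32 genes of fatty acid and cholesterol metabolism, 2 rose and 8 fell, with a median of -0.14, and 2 rose and 5 fell with own spreads. Cpt1a, which brings long-chain fatty acids to mitochondria for oxidation, fell by 1.19 and Acadl, which oxidises them, by 0.83, whereas Hmgcs1, an early enzyme of cholesterol synthesis, rose by 1.08. Of 65 cytosolic ribosomal proteins, 6 rose and 18 fell, with a median of -0.09. With own spreads 2 rose and 6 fell, the latter near the share over all genes. Over all genes 17.9% rose and 16.1% fell, or 9.8% and 7.21% with own spreads. Neither the ribosomal nor the fatty acid and cholesterol list was tested against these shares. Rpl29 fell by 1.00 and Rps29 rose by 0.90; ribosomal protein genes have many processed pseudogenes that may share tags.

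Epithelial markers were lower at week 2. Krt8 (chr15:101996698-102004482), a keratin of simple epithelium and of mammary carcinoma, had values of 11.76, 12.58 and 10.54 at week 1 and of 7.88, 7.86, 8.2 and 8.0 at week 2. All week 1 libraries were above all week 2 libraries, week 1 varied by about 2 between libraries, and the fall was 3.65 (SE 0.593, adjusted p = 0.000101, and 0.00562 with own spreads). Of 26 tumor epithelium markers listed, 15 were measured, 11 of these fell and none rose, with a median of -1.88, and 8 fell with own spreads. The desmosome protein Dsp fell by 3.23, the receptor Erbb3 by 2.37, the protease inhibitor Spint2 by 1.88 and stratifin (Sfn) by 1.51. The centred mean of the list was 1.82 to 2.1 in the week 1 libraries and -0.106 to 0.243 in the week 2 libraries. In CD103-CD69+ cells it was also high at week 1, at 1.17 to 1.48, and then -0.42 to -0.186.

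Over all genes 17.9% rose and 16.1% fell, or 9.8% and 7.21% with own spreads, and the small lists that follow were not tested against these shares. Of 14 myeloid markers 4 fell and none rose, with a median of -0.64. With own spreads 1 fell, near the share over all genes, namely Itgam (CD11b) by 1.84. The list mean of week 1 (-0.136 to 0.344) overlapped that of week 2 (-0.754 to 0.217). Of 7 B-cell markers, with a median of -1.24, 1 rose and 2 fell; Ighm (0.91) and Cd22 (-1.43) passed with both spreads, but Ighm not without week 1 replicate 3 (adjusted p = 0.0729). Of 7 markers of stroma and endothelium, with a median of -1.41, Fn1, Col1a2 and Col3a1 were lower by 2.07, 1.85 and 2.09 with the shared spread alone, and Col3a1 did not pass without week 1 replicate 1 or 2. All 3 erythroid and platelet markers measured fell, Hba-a2, an alpha globin with a near-identical copy, by 4.58 and alone in passing with own spreads; the list median was -2.10. None of 9 MHC class II genes rose, and their median was -0.34. Of these H2-Ob was lower by 1.68 with the shared spread alone, and not without week 1 replicate 1 or 2. Of 2 measured markers of gamma-delta T, NK and NKT cells, Tcrg-C2, a gamma constant gene with close copies, was higher by 2.50 with the shared spread alone, and not without week 1 replicate 1, week 1 replicate 2 or week 2 replicate 2.

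Of 8 markers of CD4 and regulatory T cells, 3 rose and 1 fell with both spreads, and the median was 0.55, or -0.18 relative to the CD3 chains. Foxp3, the lineage factor of regulatory T cells, had values of 24.20, 23.02 and 23.69 at week 1 and of 25.71, 26, 24.99 and 26.30 at week 2. The groups did not overlap, and the rise was 2.11 (SE 0.485, adjusted p = 0.00214, and 0.0312 with own spreads). Ikzf2 (Helios) and Il2ra, which activated CD8+ T cells also express, rose by 2.02 and 1.59, and Zbtb7b (ThPOK), the factor that sets CD4 identity, fell by 1.31. The part that any of these cells had in the differences was not tested.

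Whether the change from week 1 to week 2 was the same in the other subsets of the tumors was tested as a difference of differences. In CD103-CD69+ cells (3 libraries each week) 282 genes changed (2.67%), 65 higher (0.616%) and 217 lower (2.05%), and in CD103-CD69- cells (2 and 3 libraries) 329 changed (3.12%), 262 higher (2.48%) and 67 lower (0.634%). The change in CD103+CD69+ cells differed from that in CD103-CD69+ cells for 715 genes (6.77%), being more positive for 470 (4.45%) and more negative for 245 (2.32%). It differed from that in CD103-CD69- cells for 1454 genes (13.8%), 605 more positive (5.73%) and 849 more negative (8.04%). With own spreads these counts were 189 and 303. The split by direction depended on the scaling: relative to the CD3 chains it was 72 more positive and 1608 more negative for the first, and 98 and 3674 for the second. The second also turned to 447 more positive and 309 more negative after quantile normalisation and to 840 and 700 after median rescaling. The first was 417 without CD103-CD69+ week 2 replicate 1, and the second 701 without CD103-CD69- week 1 replicate 1, the lowest when single libraries were left out.

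Some T-cell genes, Cd8a among them, rose more in the double-positive cells than in both other subsets. Of 27 T-cell identity genes, the change was more positive than in CD103-CD69+ cells for 9 and than in CD103-CD69- cells for 11, and for none was it more negative. Over all genes it was more positive for 4.45% and 5.73%. For Cd8a the changes differed by 1.13 (adjusted p = 0.00103) and by 1.26 (adjusted p = 0.000299). Zfp683 went from 14.46, 13.54 and 14.69 to 15.09, 15.98 and 15.84 in CD103-CD69+ cells. Its week 1 values there were higher than in the double-positive cells of week 1, and the changes differed by 1.96 (adjusted p = 0.0459) and, against CD103-CD69- cells, by 2.74 (adjusted p = 0.00514). Neither passed with own spreads (0.139 and 0.0628). The first did not pass relative to the CD3 chains (adjusted p = 0.106), after quantile normalisation (0.146) or after median rescaling (0.0526). Nor did it pass with only neighbouring library codes (0.0682). The first also missed the threshold without any 1 of 7 libraries, namely replicates 2 and 3 of week 1 and 1 and 2 of week 2 in CD103+CD69+ cells and replicates 1 and 3 of week 1 and 1 of week 2 in CD103-CD69+ cells, with adjusted p from 0.0558 to 0.108.

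For Mki67 the changes differed by 1.48 (adjusted p = 0.00295) and 1.08 (adjusted p = 0.0175). The second did not pass with own spreads (0.108) or without CD103-CD69- week 1 replicate 1, when it was 0.70 (0.173), and neither passed relative to the CD3 chains (0.0548 and 0.313). Of the G2/M genes 8 of 52 rose more than in CD103-CD69+ cells and 21 more than in CD103-CD69- cells. Of the interferon-stimulated genes 12 of 32 rose more than in CD103-CD69+ cells; against CD103-CD69- cells 7 changed more positively and 2 more negatively. For residency genes these counts were 4 and 9 of 28, and for checkpoint genes 2 and 11 of 28, with 1 checkpoint gene more negative against CD103-CD69- cells. Over all genes the change was more positive for 4.45% against CD103-CD69+ cells and for 5.73% against CD103-CD69- cells. The first count of checkpoint genes was near that share. These list counts are for the shared spread and the deposited scale. Pdcd1 differed from CD103-CD69- cells by 2.08 (adjusted p = 0.00887, but 0.118 with own spreads and 0.0589 without CD103-CD69- week 1 replicate 2), while against CD103-CD69+ cells 1.34 did not pass (0.0915).

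**Figure D3:**
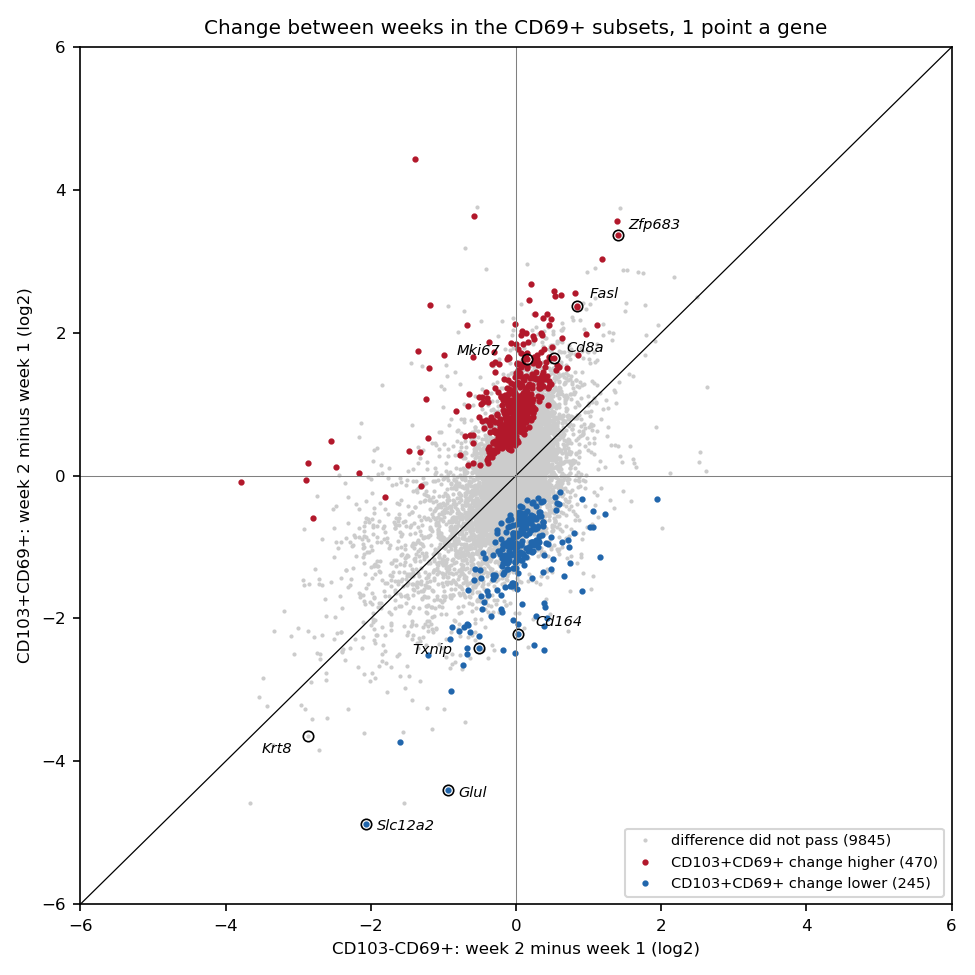
Week 2 minus week 1 in CD103+CD69+ cells (y axis) against the same difference in CD103-CD69+ cells (x axis), both in log2 units, 1 point per gene. Red marks the 470 genes with a more positive and blue the 245 with a more negative change in CD103+CD69+ cells, grey the others, and the diagonal is equal change. Circled genes are named in the text, with Glul and Slc12a2 lowest and Zfp683 among the highest of them.

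Glul and Slc12a2 changed more negatively in the double-positive cells than in both other subsets. In CD103-CD69+ cells they changed by -0.93 and -2.06 (adjusted p = 0.0283 and 0.0028). In CD103-CD69- cells their changes of -0.27 and 0.85 did not pass (adjusted p = 0.588 and 0.223). For Glul the changes differed by -3.47 from CD103-CD69+ cells and by -4.14 from CD103-CD69- cells, and for Slc12a2 by -2.81 and -5.72, all of which passed, although the first of Slc12a2 did not after quantile normalisation (-1.54, adjusted p = 0.0591). Krt8 behaved otherwise. It went from 11.07, 11.14 and 10.44 to 8.61, 7.79 and 7.65 in CD103-CD69+ cells, a change of -2.87 (adjusted p = 0.0191), and from 6.19 and 7.47 to 8.79, 9.18 and 9.29 in CD103-CD69- cells. The fall in double-positive cells differed from that in CD103-CD69+ cells by -0.77, which did not pass (adjusted p = 0.655), and from the change in CD103-CD69- cells by -5.90 (adjusted p = 0.000306). Of the epithelial list, 2 of 15 markers fell more than in CD103-CD69+ cells and 11 of 15 changed more negatively than in CD103-CD69- cells. Over all genes the change was more negative for 2.32% and 8.04%.

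For Itgae the change differed from that in CD103-CD69- cells by 2.81 (adjusted p = 0.0247). This did not pass with own spreads (0.177), without CD103-CD69- week 1 replicate 1, when it was 1.71 (0.228), or without week 2 replicate 1 of those cells (0.0534). Its change was not told apart from that in CD103-CD69+ cells (0.57, adjusted p = 0.719). The change of Foxp3 differed from that in CD103-CD69+ cells by 2.78 (adjusted p = 0.0225, and 0.103 with own spreads). This value was looked up after the marker list had been read. On the deposited scale, 7 of 65 ribosomal proteins changed more negatively than in CD103-CD69+ cells and 17 more negatively than in CD103-CD69- cells, and none more positively. Over all genes the more negative shares were 2.32% and 8.04%.

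Set beside the later weeks of the same subset, week 1 lay apart from weeks 2, 4 and 6 in several lists. The centred mean of the residency list was -0.783 to -0.59 at week 1, 0.433 to 0.779 at week 2, 0.714 to 1.04 at week 4 and 0.372 to 0.422 at week 6. That of the checkpoint list was -0.917 to -0.586, 0.304 to 0.43, 0.461 to 0.838 and 0.124 to 0.261 in the same order. For both lists all week 1 libraries were below all libraries of the later weeks.

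The G2/M list had a centred mean of -0.725 to -0.415 at week 1 and 0.296 to 0.812 at week 2, and week 4 (0.323 to 0.599) and week 6 (0.318 to 0.335) lay within the week 2 range. The interferon list was -0.497 to -0.358 at week 1, 0.261 to 0.675 at week 2, -0.124 to 0.386 at week 4 and -0.0311 to 0.121 at week 6. Its week 2 libraries were thus above all week 6 libraries and overlapped week 4. Glycolysis and hypoxia genes differed from this order. Their mean was 0.0957 to 0.133 at week 1, -0.246 to -0.131 at week 2, 0.139 to 0.301 at week 4 and 0.198 to 0.216 at week 6, so that week 2 was the low week. The cytotoxic list went on from -0.576 to -0.555 at week 1 and -0.0548 to 0.579 at week 2 to 0.653 to 0.859 at week 4 and 0.641 to 0.821 at week 6. These ranges describe libraries and were not tested between weeks.

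**Figure D4:**
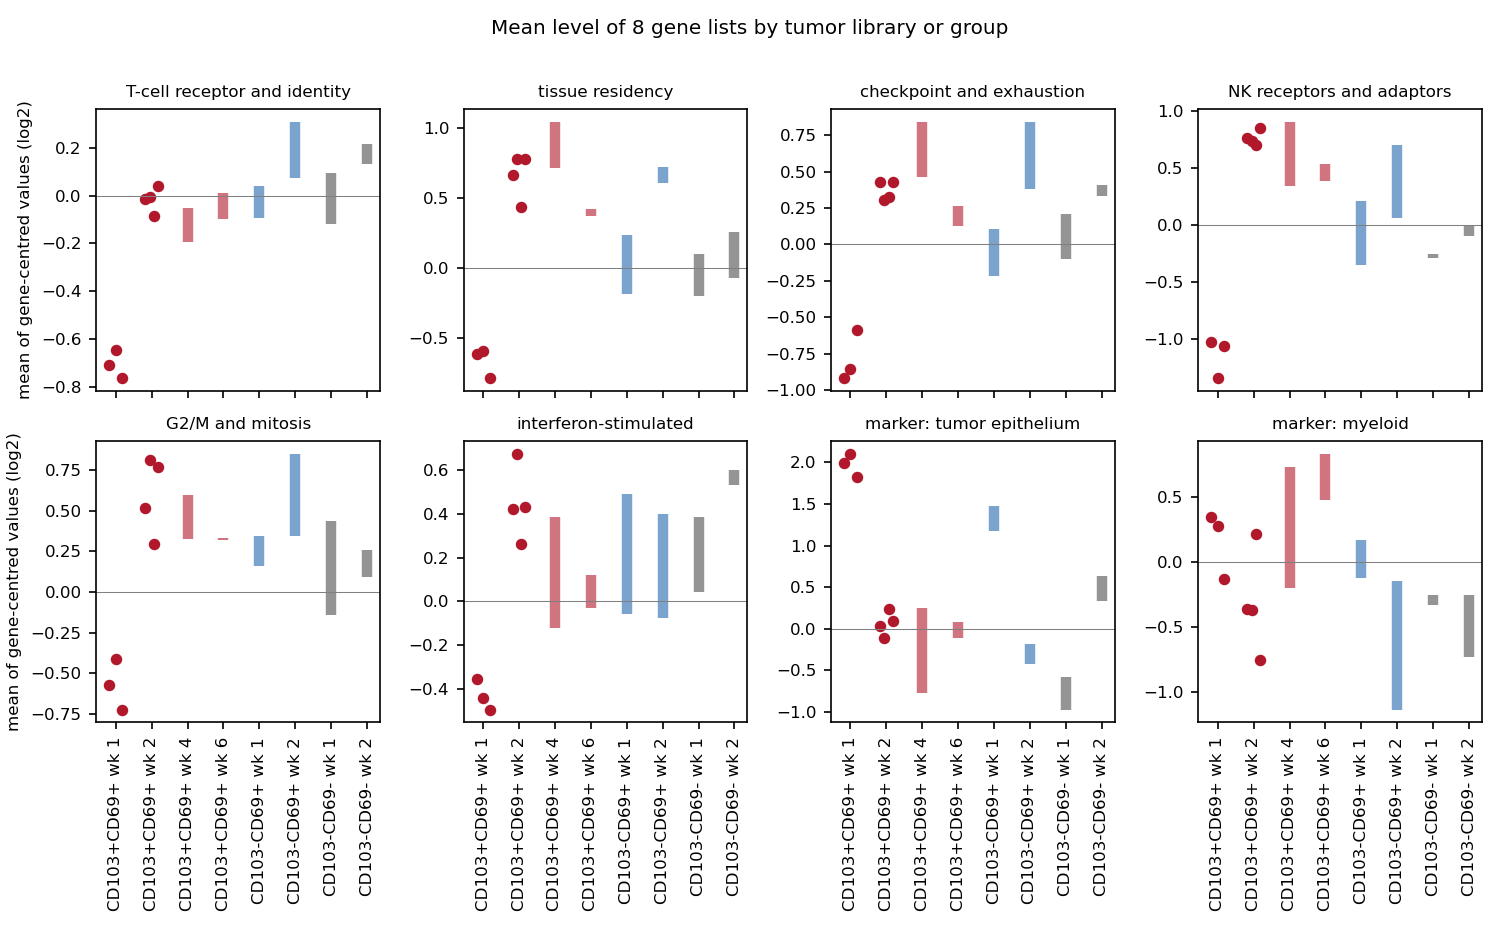
Mean of a gene list after each gene was centred on its mean over the 43 untreated libraries (y axis, log2 units, 1 scale per panel), by tumor group (x axis), for 8 lists. Points are single libraries of CD103+CD69+ cells at weeks 1 and 2, and bars span the libraries of CD103+CD69+ weeks 4 and 6 and of CD103-CD69+ and CD103-CD69- cells at weeks 1 and 2. Week 1 lay at -0.763 to -0.646 for T-cell identity and at 1.82 to 2.1 for tumor epithelium, and week 2 at -0.0844 to 0.0406 and at -0.106 to 0.243.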

How the data were processed

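Sorted CD8+ T-cell subsets were profiled by QuantSeq 3' mRNA sequencing (10 ng of total RNA, 75 bp single-end reads), per the labels. The log2 values were deposited by the authors; HISAT2, HTSeq and mm10 are named without versions per the submitters' processing notes. The log base was taken from the range of the values, and the normalisation is not given in the sources used here. Residuals about the 15 group means spanned 18 dimensions of the 28 that 43 libraries allow, so residual degrees of freedom and variances were corrected by the ratio 0.6429.

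Group-mean contrasts were fitted to all 43 libraries and 10560 genes with limma 3.58.1 (trend and robust, statmod 1.5.0, R 4.3.3). Own spreads used limma weights estimated per group (0.3534 for CD103+CD69+ week 1). The steps were run on simulated data with noise independent between genes and with the residual dimensions of the real values. Such data cannot show whether the correction holds for the dimensions missing from the deposited values. Gene names and positions came from GENCODE on GRCm38, promoters from RefSeq. Nothing says that replicates came from separate mice, so p-values measure the spread between these libraries, which may be technical. They measure only the spread left in the deposited values, because the dimensions missing from the residuals were of variation within groups. The correction assumes that the missing dimensions had held the same spread as the remaining ones, which was not tested. Exact permutation of 4 against 3 libraries cannot go below 0.0571.

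The members and the 30 gene lists were chosen with earlier results of these data known, and the counts of lowest and highest group means were added after the values were seen. Named genes were the 12 with the smallest adjusted p in each direction among those whose libraries did not overlap, up to 4 that passed per list and direction, the fixed genes Zfp683, Mki67, Krt8, Itgae, Itgb7, Cd69, Cd8a and Cd8b1, and the top 4 per direction of each difference of differences; a few of them are not reported here. Alternatives were other spreads, degrees of freedom, scalings and filters, only the groups compared, a replicate block, leaving out each library, and only neighbouring library codes.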

Additional observations from a re-analysis of the deposited data

Results flagged for a closer look

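Among 169 named genes, 5 had a week 2 library far from the other 3, by a gap to the nearest one, divided by the group's range, above Dixon's critical value for 4 samples; chance alone gives this in about 1 group in 20. Replicate 2 was the highest for Trim59 (0.845) and the lowest for Il2rb (0.931) and Klrd1 (0.898), and replicate 3 was the lowest for Acadl (0.982) and the highest for Itgam (0.887).

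Changes that differed from those of both other subsets are given as the log2 difference from CD103-CD69+ cells and then from CD103-CD69- cells. More positive were Fasl (1.54 and 1.92), Prkch (1.21 and 1.45), Cish (0.99 and 1.88), Chsy1 (1.72 and 1.99), B4galt5 (1.39 and 1.52), Ikzf3 (0.92 and 1.16), Cd8a (1.13 and 1.26), Stat4 (1.46 and 1.13), Mms22l (0.93 and 1.11), Trim59 (1.34 and 1.85), Ptpn22 (1.21 and 1.34), Amica1 (1.66 and 1.78), Zfp683 (1.96 and 2.74) and Mki67 (1.48 and 1.08). More negative were Glul (-3.47 and -4.14), Cd164 (-2.26 and -2.46), D17H6S56E-5 (-1.56 and -2.85), Slc12a2 (-2.81 and -5.72), Agps (-1.93 and -2.64), Svil (-1.43 and -2.01), Ktn1 (-1.41 and -2.25), Ube2q2 (-2.10 and -2.32), Atp13a3 (-1.05 and -1.14), Dstn (-1.41 and -1.83), Bsg (-1.66 and -2.11) and Txnip (-1.91 and -1.92). Sp100 differed from CD103-CD69+ cells by 1.05, and Itgae (2.81) and Krt8 (-5.90) from CD103-CD69- cells. With own spreads the first value of Cish and Zfp683 and the second of Zfp683, Mki67 and Itgae did not pass. The week 1 CD103+CD69+ libraries enter each of these differences.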

How the results depend on the processing

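Of 167 named genes that passed, 128 also passed with own spreads, 137 when any 1 of the 7 libraries was left out, 139 with only neighbouring library codes (without week 2 replicates 1 and 4), 142 after quantile normalisation and 126 relative to the CD3 chains. The 3587 genes that passed became 1796 with own spreads and 7046 relative to the CD3 chains, and 3149 to 3514 when single libraries were left out. The 715 genes against CD103-CD69+ cells became 189 with own spreads, 412 with neighbouring codes, 232 after quantile normalisation, 1680 relative to the CD3 chains, 2137 with uncorrected degrees of freedom, and 417 to 934 without single libraries. The 1454 against CD103-CD69- cells became 303 with own spreads, 756 after quantile normalisation, 3772 relative to the CD3 chains, 3044 with uncorrected degrees of freedom, and 701 to 1729 without single libraries. Relative to the CD3 chains the sign turned for named genes including Itga4 (-0.11), Itgal (-0.043), Itgb2 (-0.035), Il2rg (-0.19), Smad7 (-0.36), Mdm2 (-0.10), Bax (-0.037), Pfkp (-0.033), Cox6c (-0.063), Atp5f1 (-0.34), Sdhb (-0.22), Atp5h (-0.34), Rps13 (-0.0076), H2-K1 (-0.058) and Cd8b1 (-0.35). After quantile normalisation the difference of Krt8 from CD103-CD69+ cells turned from -0.77 to 0.13, neither of which passed. Of the named genes whose change differed from CD103-CD69+ cells, 25 of 27 also passed with own spreads and 21 of 27 after quantile normalisation or relative to the CD3 chains. Against CD103-CD69- cells 25 of 28, 28 of 28 and 26 of 28 did. Most named genes were chosen for a small adjusted p in these same libraries, so the shares of them that held do not stand for all genes. Over all genes 189 of 715 and 303 of 1454 passed with own spreads. Apart from the shift that each scaling makes by construction, the cause of these changes with the processing was not tested. Deviations from the group mean had correlations of -0.41, 0.18 and 0.36 between week 1 and week 2 libraries of the same replicate number. The largest of all, 0.74, was between week 1 replicate 3 and week 2 replicate 1. With so few libraries, and with dimensions missing from the residuals, these values cannot settle whether replicate numbers mark a pairing. The replicate block gave 3558, 819 and 1683 genes and ended the calls of Smad7, Hsp90ab1 and Cd79a. Depth is unknown, which limits what can be said of low genes.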
